A study of Arabidopsis thaliana with 6 samples.

Results

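Cold and drought protection was followed through 7 genes across 6 single-channel Affymetrix arrays of rosette leaf RNA from Arabidopsis thaliana. They were the dehydrin genes LTI30 and COR47, the cold-regulated genes COR15B and KIN2, the late embryogenesis abundant (LEA) gene LEA4-5, the zinc finger gene STZ and the linker histone gene HIS1-3. They were found by gene symbol in the platform annotation, which paired them with 11 of the 8297 probe sets, 1 of which is paired with both KIN2 and its neighbour KIN1. The arrays carry the codes CVL, CVM, CVH, CLL, CLM and CLH, with 1 array for each code, and the study concerns how plants acclimate to light. Below, CV and CL are called the starts of the codes and L, M and H their endings. All 6 samples were unshaded rosette leaves of accession Ws-2 (stock N1601) at growth stage 3.90, without genetic modification and grown at 60% humidity. The letters are not spelled out in the labels, and none is read here as a light level. Only for CVL and CLL do the growth conditions mention darkness (16 hours, at 15 °C).

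In Arabidopsis, cold induces the CBF transcription factors, which switch on a set of COR (cold-regulated), KIN and LTI genes, while drought acts on many of the same genes through abscisic acid and the DREB2 and ABF factors. Dehydrins and other LEA proteins are very hydrophilic, largely unfolded proteins that accumulate when cells lose water and protect membranes and enzymes. STZ (also ZAT10) is a repressor-type zinc finger protein that responds to cold, salt, drought and strong light, and HIS1-3 is the stress-inducible variant among the linker histones, which bind DNA between nucleosomes. In leaves, part of this set also follows light, sugar and time of day.

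The deposited signals had a trimmed mean of 100.0 on every array and medians from 20.0 (CVM) to 26.1 (CLL). Rubisco activase (RCA), a defining mesophyll gene, had signals from 7730.6 to 10819.5, and the other 7 mesophyll markers were not analysed here. The GAPDH 3-prime over 5-prime ratio, which is high in degraded RNA, was 5.50 in CVH and 6.22 in CLH, and from 2.81 to 3.76 on the other arrays. Array number limits the precision, because no code was replicated. Nothing in the labels says that plants were grown or harvested separately. A p-value here therefore speaks only of spread over arrays of different codes and not over replicates. In the fit of start and ending below, that spread is how the CV to CL difference varies with the ending. In the fit that sets L apart, it is the difference between M and H within each start. Differences between codes are thus counted as error, and the spread may also be technical. With single arrays, neighbours in an order of signals cannot be separated by replicate error. Changes are differences of log2(signal + 3.9), where 3.9 is the level that 20% of deposited values lie below, so that changes of dim probe sets are understated. Lower signal in whole leaves can reflect fewer cells of a type or less RNA per cell, which cannot be told apart.

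The 7 genes were chosen by their signal differences between CV and CL and between the endings, so their values are given as descriptions. The limma fits over all probe sets below include them, and a call there is no independent support for the values that chose them. All 11 probe sets passed the filter on dim signals. The microarray compares arrays for 1 probe set and not probe sets with each other, so no gene is ranked above another by signal.

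LTI30, a dehydrin that binds membranes, had signals of 239.4, 57.3 and 100.7 in CVL, CVM and CVH, against 77.3, 545.1 and 677.8 in CLL, CLM and CLH. CV was thus highest at L, CL was lowest at L, and the ranges of the starts overlapped. At M the signal was 4.18-fold lower than at L in CV and 7.05-fold higher in CL, and at H it was 2.38-fold lower in CV and 8.77-fold higher in CL. Between the starts, CV was 3.10-fold higher at L, 9.51-fold lower at M and 6.73-fold lower at H.

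COR47, an acidic dehydrin, was read by a pair of probe sets. The dimmer had signals of 792.1, 212.4 and 398.8 in CVL, CVM and CVH, against 612.1, 1835.3 and 1117.7 in CLL, CLM and CLH. The brighter had 1313.8, 582.8 and 816.4 in CV, against 1048.6, 3043.8 and 3082.5 in CL. Both put CVM lowest and CVL just after the CLM and CLH arrays, and they differed only in whether CLM or CLH was highest. In these, CV was slightly above CL at L (1.29- and 1.25-fold) and well below it at M (8.64- and 5.22-fold) and at H (2.80- and 3.78-fold), the dimmer probe set being given first.

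COR15B encodes a small protein of the chloroplast stroma that stabilises membranes during freezing. Its signal was 4786.0, 3278.6 and 1985.4 in CVL, CVM and CVH, against 1620.6, 3992.1 and 5030.9 in CLL, CLM and CLH. Across L, M and H the signal was stepwise lower in CV and stepwise higher in CL, and the values of the starts interleaved. CV was 2.95-fold higher at L, 1.22-fold lower at M and 2.53-fold lower at H. The mean over endings was 3350.0 ± 1402 in CV and 3548 ± 1748 in CL (SD over the endings, n = 3 each). These means average differences of opposite sign, with CV minus CL in log2 at 1.56 (L), -0.28 (M) and -1.34 (H). The SD is spread between endings and not replicate error.

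KIN2 (also COR6.6) encodes a small hydrophilic protein of the same cold set. Its brighter unshared probe set had signals of 7027.9, 6599.6 and 7013.2 in CVL, CVM and CVH, against 5834.6, 8642.4 and 12211.2 in CLL, CLM and CLH. The CV arrays were nearly level, and CL was 1.48-fold higher at M and 2.09-fold higher at H than at L. The dimmer unshared probe set had 6049.3, 5900.5 and 6773.1 in CV, against 5423.2, 7637.3 and 9903.6 in CL, and the one shared with KIN1 had 8720.8, 6960.9 and 7002.7 in CV, against 6876.1, 11233.3 and 14433.2 in CL. All of its probe sets put CLH first, CLM second and CLL last. They disagreed on the order of CVL and CVH, which therefore do not differ beyond the spread between probe sets. The highest array was 1.83 to 2.10 times the lowest, the narrowest span among the 7 genes.

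**Figure D1:**
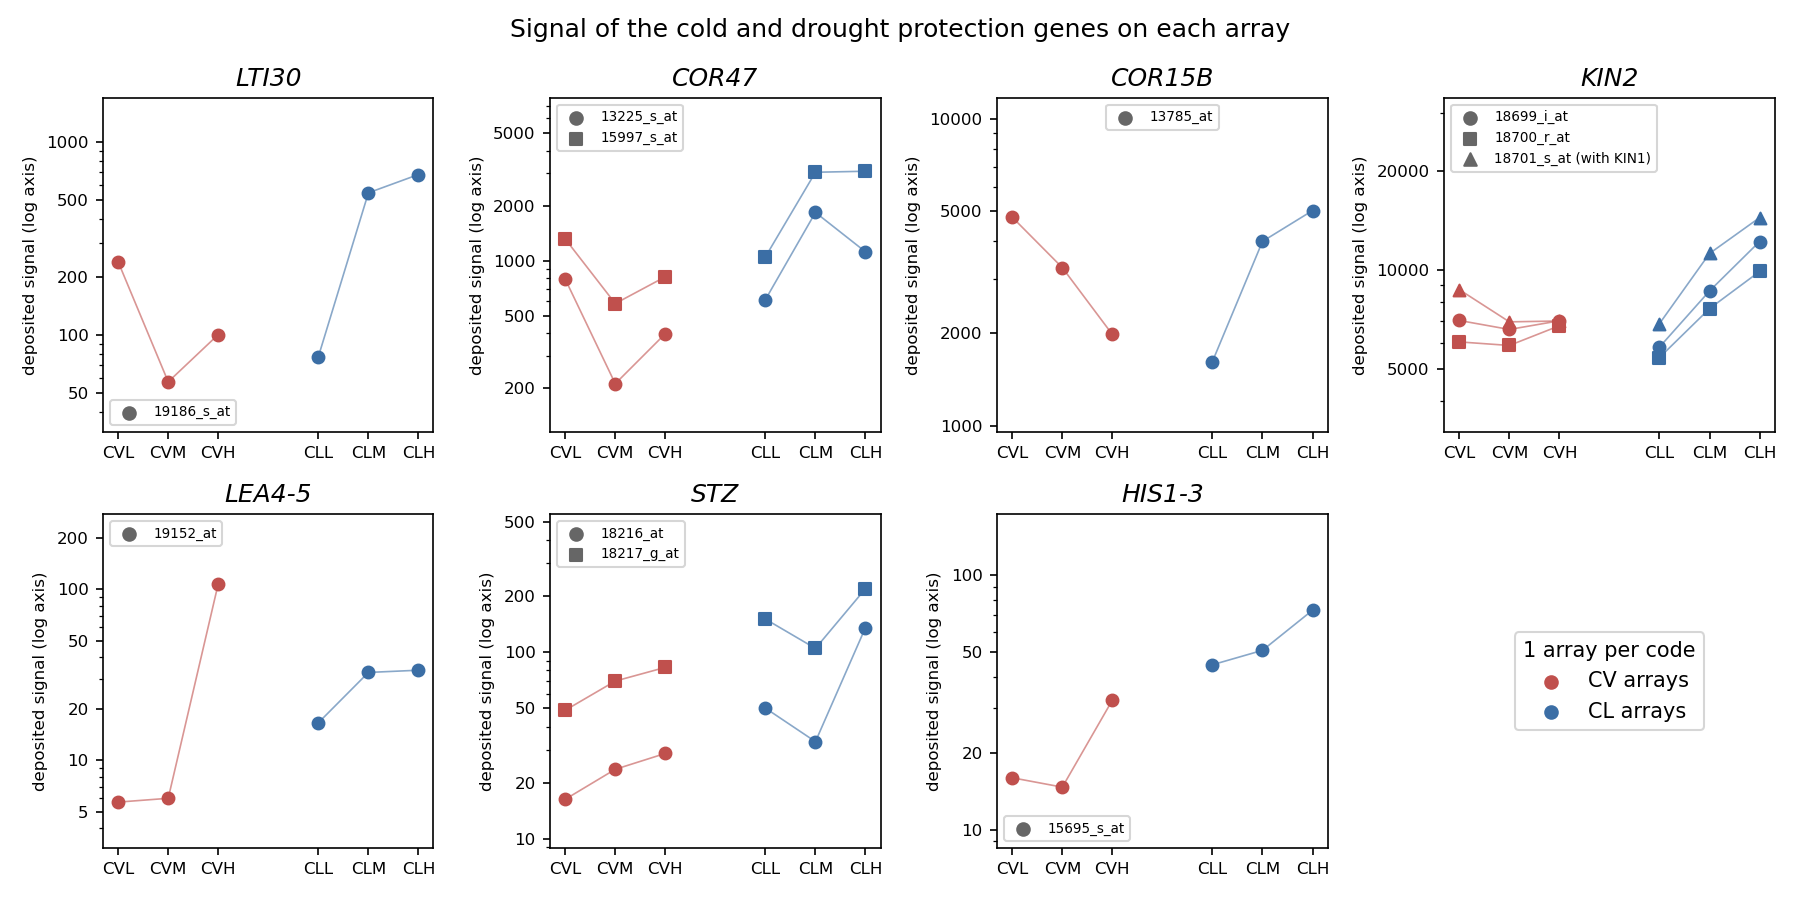
Deposited signal (log axis) of the 11 probe sets of the 7 genes on each array, CV arrays in red and CL arrays in blue, with a marker shape for each probe set and lines joining the endings of a start. LTI30, COR47 and COR15B are highest at L within CV and lowest at L within CL, and the only LEA4-5 signal above 100 is that of CVH (108.1).

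LEA4-5, a LEA protein of vegetative tissue induced by water deficit, had another pattern. Its signals were 5.7, 6.0 and 108.1 in CVL, CVM and CVH, against 16.6, 32.7 and 33.7 in CLL, CLM and CLH. CVH was the highest of the 6 arrays and CVL and CVM the lowest, close to the offset of 3.9. The CVL and CVM signals lie below 8.85, the highest mean among the probe sets left out as dim, so no fold against them is given. The log2 changes below that use these signals are uncertain in size. CV was lower than CL at L and at M, and at H it was 3.21-fold higher. Within CL the signal was 2.03-fold higher at H than at L. The GAPDH ratio was also high in CVH, and its part in this value was not tested.

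STZ showed a difference between the starts with the same sign at every ending. The brighter probe set had signals of 48.9, 70.1 and 83.0 in CVL, CVM and CVH, against 150.6, 104.9 and 219.2 in CLL, CLM and CLH. The dimmer had 16.3, 23.6 and 28.7 in CV, against 50.2, 33.2 and 135.7 in CL. Every CV array lay below every CL array in both, and both gave the same order of all 6 arrays, from CLH down to CVL. Means of the brighter probe set were 67.3 ± 17.2 in CV and 158.2 ± 57.5 in CL (SD over the endings, n = 3 each). The gap was 3.08-fold at L in both probe sets, 1.50- and 1.41-fold at M, and 2.64- and 4.73-fold at H. The ending with the lowest signal differed, being L in CV and M in CL.

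HIS1-3 had signals of 16.0, 14.7 and 32.3 in CVL, CVM and CVH, against 44.5, 50.7 and 72.9 in CLL, CLM and CLH. Again no CV array reached the lowest CL array, with means of 21.0 ± 9.81 in CV and 56.0 ± 14.9 in CL (SD over the endings, n = 3 each). CV was 2.78-fold lower at L, 3.45-fold lower at M and 2.26-fold lower at H. In both starts H was the highest ending.

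Side by side, the genes fell into a group whose difference between the starts turned with the ending (LTI30, COR47, COR15B and, with a small size, KIN2), a group lower in CV throughout (STZ and HIS1-3), and LEA4-5. CV was higher at L in 7 of the 11 probe sets, all those of LTI30, COR47, COR15B and KIN2, where 38.8% of all tested probe sets were. At M all 11 were lower in CV, against a background of 61.7%, and at H 10 of 11 were, against 45.7%, the exception being LEA4-5. After quantile normalization the backgrounds were 49.3% at L and 50.8% at M, and the counts of the 11 were the same. Every CV array lay below every CL array for 3 of the 11 probe sets (STZ and HIS1-3), and for 12.2% of all tested probe sets, so this pattern was common on the arrays. Over the 7 genes, each by its brightest unshared probe set, CV minus CL had medians of 0.27 (L), -1.55 (M) and -1.34 (H), beside -0.15, -0.18 and 0.05 over all tested probe sets.

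**Figure D2:**
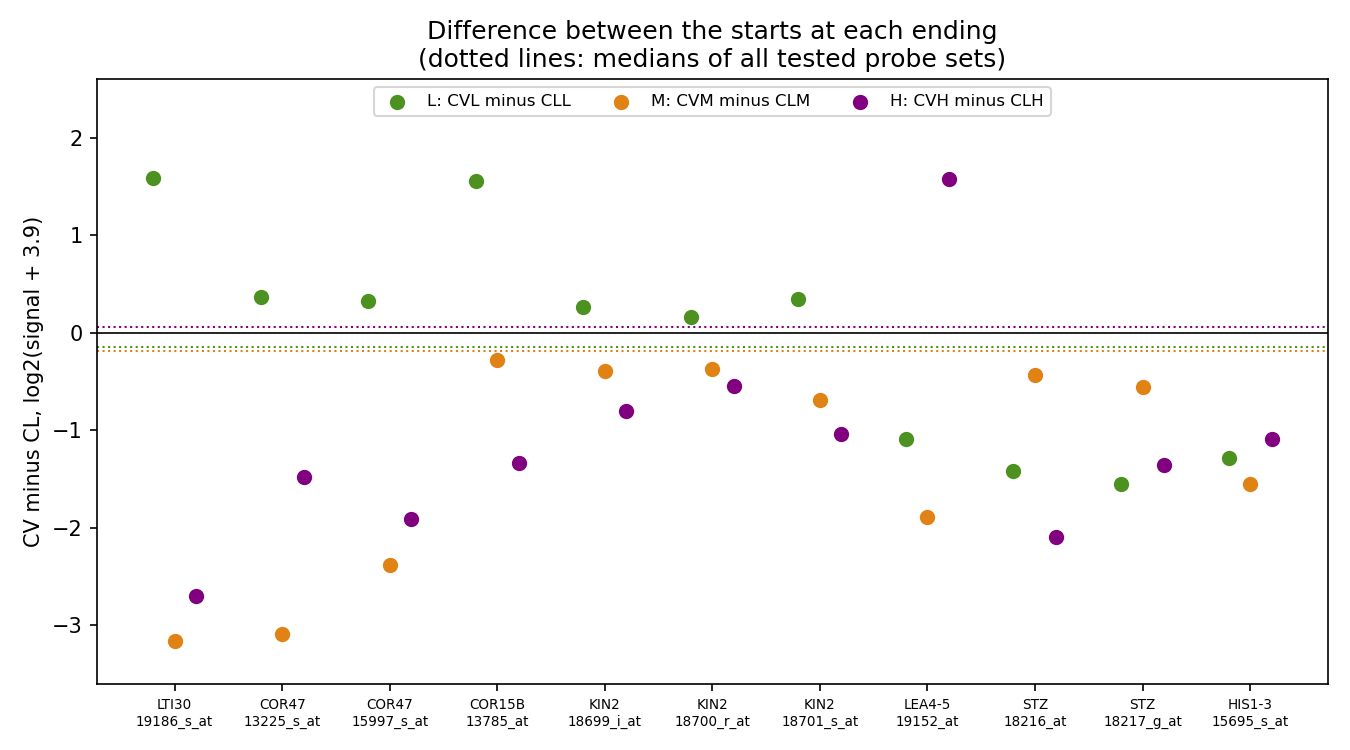
Difference CV minus CL in log2(signal + 3.9) at each ending for the 11 probe sets, with green, orange and purple points for L, M and H and dotted lines for the medians of all tested probe sets (-0.15, -0.18 and 0.05). LTI30 lies at 1.58 at L, -3.17 at M and -2.70 at H, whereas HIS1-3 stays between -1.55 and -1.09.

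The comparison of CV with CL over all endings used an additive limma fit with the ending as a block. The fitted changes were -1.43 (SE 0.78) for LTI30, -1.40 (SE 0.54) and -1.32 (SE 0.45) for COR47, -1.32 (SE 0.34) and -1.16 (SE 0.28) for STZ, and -1.31 (SE 0.25) for HIS1-3, 3 arrays against 3, with the dimmer probe set first for COR47 and STZ here and below. Those of LEA4-5 (-0.47, SE 0.58), KIN2 (-0.46 to -0.25) and COR15B (-0.02, SE 0.45) were smaller. With 1 array left out, those of KIN2 ran from -0.59 to -0.06 for the brighter unshared probe set, where the value nearest 0 was that without CVH or CLH. The median over all 5773 probe sets was -0.10. The fitted changes of LTI30 and HIS1-3 are of like size, but that of LTI30 averages endings with opposite signs. For LTI30, CV minus CL was 1.58 (L), -3.17 (M) and -2.70 (H), and for HIS1-3 -1.28, -1.55 and -1.09. The larger SE of LTI30 thus counts this change of sign as spread, and its fitted change describes no single ending. COR47, COR15B and KIN2 also changed sign between L and the other endings. At L the differences of COR47 (0.37 and 0.32) and KIN2 (0.16 to 0.34) were small. Over all tested probe sets, the percentiles 5 and 95 at L were -1.18 and 0.91. LEA4-5 changed sign as well, at -1.09 (L), -1.89 (M) and 1.57 (H). None of the 11 was among the 2 probe sets called in the limma fit (0.0346% of those tested), with 748 at an unadjusted p under 0.05.

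Between the endings, within CL, the signal was higher at H than at L for all 11 probe sets, where 42.8% of all tested probe sets were. It was higher at H than at L in both starts for 5 (LEA4-5, STZ, HIS1-3 and 1 KIN2 probe set), against 25.7%. The fitted H against L change was 2.21 (SE 0.72) for LEA4-5, 1.03 (SE 0.41) and 0.62 (SE 0.34) for STZ and 0.76 (SE 0.31) for HIS1-3, 2 arrays against 2. That of LEA4-5 sets the high CVH signal (108.1) against a CVL signal near the offset (5.7), so its size is uncertain. For M against L the fitted changes of the 11 ran from -0.15 to 0.44. The limma fits called no probe set for H against L (0.0% of those tested, 349 at an unadjusted p under 0.05) or for M against L (0.0%, 74). Of the 11 probe sets, 9 had their highest signal in CLH, as did 17.8% of all tested probe sets. CLH is also the array with the highest GAPDH ratio, whose part in these values was not tested.

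The turn between L and the other endings was measured as the difference CV minus CL at M and H less that at L. It was -4.52 (SE 0.59) for LTI30, -2.65 (SE 0.63) and -2.47 (SE 0.47) for COR47 and -2.37 (SE 0.50) for COR15B, and from -1.21 to -0.62 for KIN2. It was -0.04 (SE 0.69) for HIS1-3, 0.16 (SE 0.90) and 0.59 (SE 0.64) for STZ, and 0.94 (SE 1.45) for LEA4-5. The median of all probe sets was 0.09, with 5% of them below -1.23, and LTI30 stood 5th from the lowest of 5773. The limma fit called 18 probe sets (0.312% of those tested), of which LTI30 was the only one among the 11. Its opposite changes were known when it was chosen, and without the intensity trend the fit called 0 probe sets (323 at an unadjusted p under 0.05). The plain pattern, CV lower and CL higher than L at both M and H, was seen in 6 of the 11 probe sets (LTI30, COR47, COR15B and 2 of KIN2), and in 9.34% of all tested probe sets. With both H arrays left out, CV was lower and CL higher at M than at L in 8 of the 11 (all those of LTI30, COR47, COR15B, KIN2 and HIS1-3), against 29.5% of all. The count goes by sign alone, and some changes were near 0. They were -0.10 in CV and 0.17 in CL for HIS1-3, and -0.09 and -0.04 in CV for the unshared KIN2 probe sets. Without the H arrays the turn was -4.75 for LTI30, -3.46 and -2.70 for COR47 and -1.84 for COR15B. This subset was chosen after seeing the data, and with 1 array per code it leaves no spread to judge these values by. Its arrays had GAPDH ratios between 2.81 and 3.76, and the part of RNA quality in the turn was not tested.

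**Figure D3:**
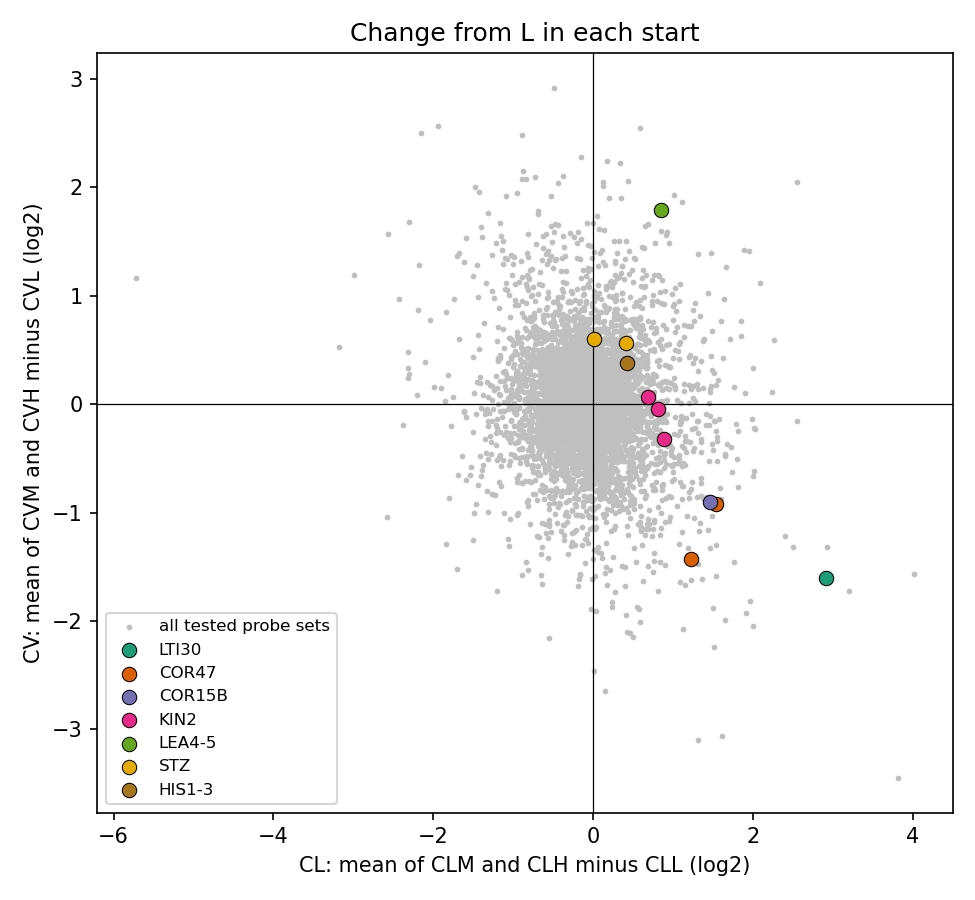
Change from L (mean of M and H minus L, log2) in CV on the vertical axis and in CL on the horizontal axis, with grey dots for all 5773 tested probe sets and coloured dots for the 7 genes. LTI30 lies at -1.60 in CV and 2.91 in CL, COR47 and COR15B lie in the same lower right area, and LEA4-5 has positive means in both starts (1.79 and 0.86). In CV that mean of LEA4-5 comes from CVH, with changes from L of 0.04 at M and 3.54 at H, against a CVL signal near the offset.

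Among themselves, LTI30 and COR47 had the most alike profiles over the 6 arrays (Pearson r of log2 values 0.96, Spearman rho 0.94), followed by STZ and HIS1-3 (r 0.91, rho 0.89) and LTI30 and KIN2 (r 0.87, rho 0.94). COR15B was related to LTI30 (r 0.73, rho 0.77), KIN2 (r 0.69, rho 0.89) and COR47 (r 0.58, rho 0.71). It was less so to STZ (r -0.09, rho 0.03) and HIS1-3 (r -0.02, rho 0.31), and its r with LEA4-5 was -0.33 (rho -0.09). Each r rests on 6 arrays shared by all genes, which are not independent samples of 1 condition. Over the 6 arrays the SD of log2 values was 1.47 for LTI30, 1.35 for LEA4-5, 1.09 and 0.99 for COR47 and 0.32 to 0.44 for KIN2, against a median of 0.37 over all probe sets.

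Outside the set, the named genes with the profile most like each of the 7 were taken from 687 varying probe sets paired with 1 gene. For COR47 they were ICL, the isocitrate lyase of the glyoxylate cycle (r 1.00), AT4G27130 (r 0.99) and the autophagy gene ATG8E (r 0.98), and ICL was also first for LTI30 (r 0.97). ICL signals were dim, at 7.5, 1.5 and 3.3 in CVL, CVM and CVH, against 5.0, 17.7 and 20.6 in CLL, CLM and CLH, in part below the offset. ATG8E had 119.6, 51.4 and 77.8 in CV, against 146.5, 432.3 and 470.1 in CL. LTI30 was followed further by AT1G08890 (r 0.96) and AT1G11850 (r 0.96), and COR15B by AT3G16370 (r 0.97), the defensin-like gene LCR69 (r 0.91) and NRPE3B (r 0.89).

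For KIN2 the nearest were AT1G08890 (r 0.93), AT2G21130 (r 0.93) and AT1G10400 (r 0.92). LEA4-5 was closest to ALDH7B4, a stress-inducible aldehyde dehydrogenase (r 0.95), whose signals were 128.0, 136.4 and 498.7 in CVL, CVM and CVH, against 256.7, 258.6 and 214.7 in CLL, CLM and CLH; AT4G22820 (r 0.95) and AT4G08190 (r 0.94) came next. STZ was closest to AT4G38540 (r 0.97), AT2G18150 (r 0.96) and AT1G23590 (r 0.93). HIS1-3 was closest to the glutathione transferase gene GSTF3 (r 0.97), AT4G19860 (r 0.97) and AT4G14020 (r 0.97). These are the largest of many correlations over 6 arrays and describe likeness only.

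Other genes were taken by locus from lists of 193 genes, which hold genes of these pathways, clock genes and marker genes. Of these, 25 beyond the 7 were on the array under a name and 14 had a tested probe set. The 14 include the clock gene GI and the markers RCA and SAG29, so counts over them do not describe these pathways alone. No gene of these 14 was called by limma in any of the 4 comparisons. For CV against CL, 5 had a higher and 9 a lower fitted level (median -0.14, against -0.10 over all probe sets). The cold list of 36 genes held 1 named gene beyond the 7, AT4G33980, which was too dim to test at signals of 12.0, 0.8 and 12.7 in CVL, CVM and CVH, against 5.4, 1.2 and 6.6 in CLL, CLM and CLH. The drought and abscisic acid list of 41 held none, and neither did the lists of high light and early stress and of seed, flower and vascular marker genes.

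Of the LEA list, 7 genes beyond the set were tested, 5 with a lower and 2 with a higher fitted level in CV (median -0.13), and 10 were left out as dim, with signals from 0.3 to 8.3. AT1G54410, a small dehydrin, had 5312.1, 4578.2 and 5175.8 in CVL, CVM and CVH, against 7196.6, 8904.6 and 9263.7 in CLL, CLM and CLH, so that no CV array reached a CL array. Its fitted change was -0.75 (SE 0.17, limma adjusted p = 0.161). AT2G23120, also of the LEA list, had 1981.8, 1872.0 and 1955.9 in CV, against 2012.4, 2777.6 and 3333.3 in CL, level in CV and higher at M and H in CL, with a fitted change of -0.45 (SE 0.21, limma adjusted p = 0.413). AT2G44060 ran the other way (0.33, SE 0.26), and the drought-induced gene DI21 differed little (-0.17, SE 0.29). The remaining 3 were AT2G23110, AT2G46140 and LEA (AT2G21490), with fitted changes from -0.13 to 0.04. That of AT2G46140 averages differences of opposite sign, at -1.02 (L), 1.97 (M) and -1.10 (H).

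Of the other linker histone genes, AT1G06760 had a fitted change of -0.24 (SE 0.25, limma adjusted p = 0.733) and AT2G30620 of 0.45 (SE 0.23, limma adjusted p = 0.444). AT2G30620 had signals of 707.3, 687.2 and 804.6 in CVL, CVM and CVH, against 424.5, 577.8 and 624.8 in CLL, CLM and CLH, all CV arrays being above all CL arrays. Of zinc finger genes of the STZ type, ZAT7 had a fitted change of -1.05 (SE 0.51) at signals of 1.9, 11.0 and 1.6 in CV, against 11.8, 22.7 and 6.3 in CL, partly below the offset. AT2G28200 had 0.69 (SE 0.52), with adjusted p = 0.423 and 0.625 for these 2 in limma. For AT2G28200, CV minus CL was -0.12 (L), -0.25 (M) and 2.42 (H). Its positive fitted change thus comes from the H arrays, with 43.3 in CVH and 4.9 in CLH.

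**Figure D4:**
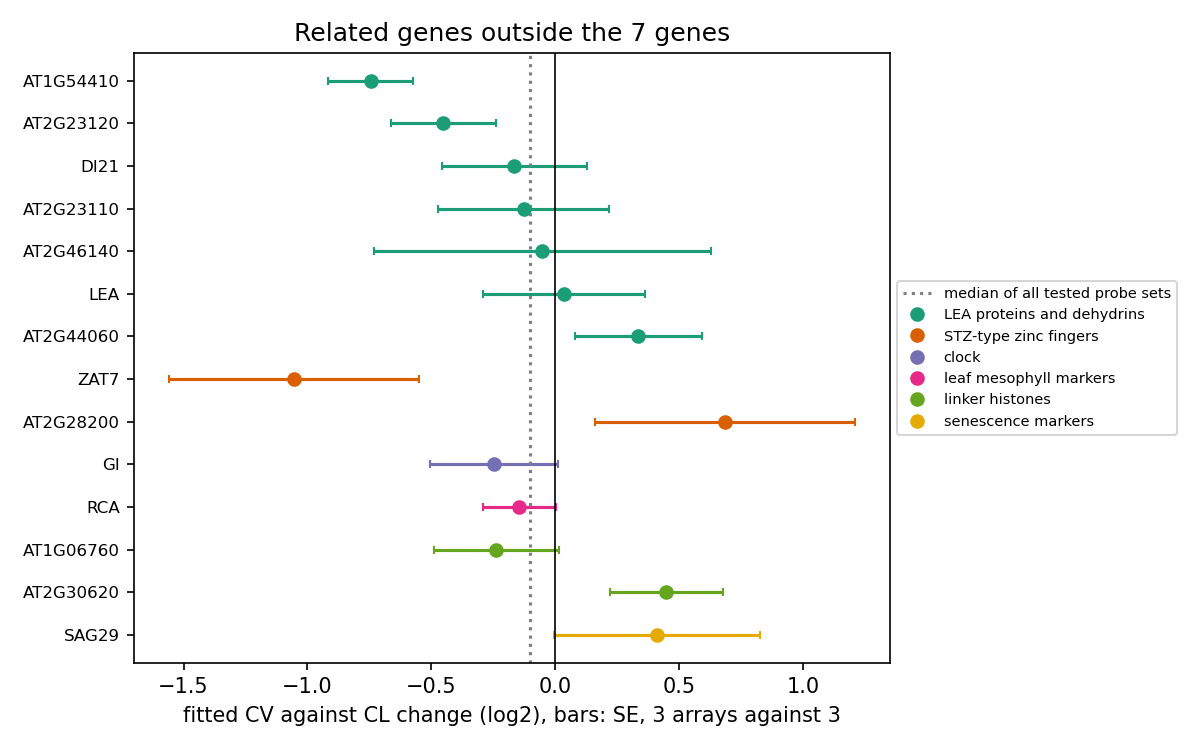
Fitted CV against CL change (log2) of the 14 tested genes of the wider lists, 1 probe set per gene, coloured by list, with bars of 1 SE (3 arrays against 3) and a dotted line at the median of all tested probe sets (-0.10). AT1G54410 (-0.75) and ZAT7 (-1.05) lie lowest and none of the 14 was called.

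Probe sets whose names end in _s_at can match several transcripts, and those of LTI30, COR47, HIS1-3 and the shared KIN2 set are of this kind. Names of the unshared KIN2 probe sets (_i_at and _r_at), the brighter STZ probe set (_g_at) and that of GSTF3 (_f_at) also differ from plain _at. Whether these match other transcripts was not tested. Both STZ probe sets derive from the same sequence record, as do both unshared KIN2 probe sets, so their agreement may not be that of independent readings. LTI30, COR47, COR15B and KIN2 each lie next to a related gene in the TAIR10.1 gene order (XERO1, ERD10, COR15A and KIN1). The signal of a related neighbour in these probe sets was not tested, and only the set shared with KIN1 is listed for both genes.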

How the data were processed

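Biotin-labelled RNA was hybridised to a single array for each code, per the labels. The authors deposited 1 linear intensity per probe set and array, and the values show scaling to a common trimmed mean. Their software was not given in the sources used here. Values were analysed as log2(value + 3.9). The 50 control probe sets and the 2474 dimmest (30%, by mean over arrays) were left out, leaving 5773. limma (version 3.58.1 in R 4.3.3, lmFit and eBayes with an intensity trend) was fitted with start and ending, and with start, L or not L, and their interaction; each fit leaves 2 residual degrees of freedom. Calls have a Benjamini-Hochberg adjusted p under 0.05. The fits were also run on simulated data with known changes and independent noise. That check does not cover spread between unreplicated codes, so it cannot show whether the calls here hold. Of all probe sets, 3794 are paired with 1 gene and 70 with several, per the platform annotation, updated through gene identifiers. Named are the 7 genes, the 3 named genes most like each (Pearson r, SD of log2 values at least 0.5), and up to 4 genes per list with the largest change, plus every gene of short lists; the remaining LEA and dim genes were named after their values were seen. The brightest probe set represents a gene. The members and lists were chosen with earlier results of these data known. Alternatives were the offset, quantile normalization, the filter, the trend, the block and arrays left out.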

Additional observations from a re-analysis of the deposited data

Results flagged for a closer look

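In 6 probe sets both changes from L were negative in CV and positive in CL, so that the starts moved in opposite directions. The difference of these changes, CV less CL, was -4.52 for LTI30, -2.65 and -2.47 for COR47, -2.37 for COR15B, and -0.86 for a KIN2 probe set and -1.21 for the one shared with KIN1. In the limma fit over all probe sets this difference was called for LTI30 and for none of the other 5. The genes were chosen with it known, so the call is no independent support, and the opposite direction itself was not tested. For the unshared KIN2 probe set the CV changes were only -0.09 at M and -0.003 at H.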

How the results depend on the processing

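With offsets of 1 or 16 or after quantile normalization, no fitted CV against CL change of the 11 probe sets turned its sign, but that of LEA4-5 was -0.67 with offset 1 and -0.14 with offset 16, against -0.47. The turn between L and the other endings turned only for the dimmer STZ probe set, at -0.0027 with offset 16 and -0.0088 after quantile normalization, against 0.16. Quantile normalization, applied to these counts after seeing the data, gave 7 in place of 6 probe sets with opposite changes and 8 in place of 9 highest in CLH. For CV against CL the 2 calls became 0 without the trend (673 at an unadjusted p under 0.05 in limma) and 0 without the ending block (866). The 18 calls for the turn became 5 with no filter on dim probe sets and 0 without the trend (323). With 1 array left out, and 1 residual degree of freedom, calls ran from 1 to 257 for CV against CL (257 without CVL, 251 without CLL, 57 without CVH, 55 without CLH, 1 without CLM or CVM), from 0 to 38 for M against L (38 without CVL, 16 without CLL), from 0 to 64 for H against L (54 without CVL, 64 without CLL, 2 without CVH, 3 without CLH) and from 24 to 70 for the turn (61 without CLM, 70 without CLH, 52 without CVM). In the fit of start and ending, the partner of a left-out array is fitted exactly. Leaving out either array of an ending therefore gives the same CV against CL change, from the other endings alone, and these are not separate checks. Why the numbers of calls moved was not tested further. Of the 14 genes of the wider lists, AT1G54410 was called for CV against CL without CLL (limma adjusted p = 0.020) or CVL (0.014). Without CLL the fitted H against L change of SAG29 was 2.31, with L then read by CVL alone. Leaving out 1 array gave fitted CV against CL changes from -0.81 to 0.64 for COR15B (0.11 without CLM or CVM, 0.64 without CLH or CVH), from -1.49 to 0.24 for LEA4-5 (0.24 without CLM or CVM), from -2.93 (without CVL or CLL) to -0.56 (without CVM or CLM) for LTI30, and likewise from -2.28 to -0.55 and from -2.14 to -0.79 for the dimmer and brighter COR47 probe sets. For KIN2 they ran from -0.59 to -0.06 and from -0.46 to -0.11 (brighter and dimmer unshared) and from -0.87 to -0.17 (shared), lowest without CVL or CLL and highest without CVH or CLH. Turns ran from -0.81 (without CVH) to 2.69 for LEA4-5, from -0.80 (without CLM) to 1.11 (without CLH) for the dimmer STZ probe set, from 0.07 (without CLM) to 1.11 (without CLH) for the brighter and from -0.52 to 0.44 for HIS1-3 (0.21 without CLH, 0.44 without CVM). With both H arrays left out, chosen after seeing the data, COR15B had 0.64 for CV against CL and LEA4-5 a turn of -0.79. Leaving out CLL or CVL leaves no turn to fit. No paired analysis was possible because each code has 1 array, so that no replicate number links arrays. The block in the CV against CL fit is the ending, which is part of the design. The dim signals of LEA4-5 at CVL and CVM, near the offset, limit the size of its changes.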

Other observations

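The senescence-associated sugar transporter gene SAG29 had, like LEA4-5, its highest signal in CVH, at 15.0, 46.2 and 118.9 in CVL, CVM and CVH, against 26.1, 40.4 and 33.4 in CLL, CLM and CLH. Its fitted H against L change was 1.51 (SE 0.51, limma adjusted p = 0.752). It was the only 1 of 8 senescence markers on the array under a name. The clock gene GI (GIGANTEA), which is linked to cold and drought responses, was read by 4 probe sets. Its brightest had 556.6, 529.0 and 570.4 in CVL, CVM and CVH, against 473.8, 608.2 and 979.1 in CLL, CLM and CLH. On this probe set the CV arrays were close to level and CLH was highest, but the 4 disagreed. Another was highest in CLM, at 93.6 with CLH at 50.9, and the dimmest was highest in CVH, at 17.7 with CVL at 2.8. The fitted CV against CL change was -0.25 (SE 0.26, limma adjusted p = 0.724). Over the 4 GI probe sets that change ran from -0.42 to -0.21.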
